A study of Sus scrofa with 6 samples.

Results

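Glyceroneogenesis is the making of the glycerol backbone of triglyceride from pyruvate instead of from glucose. Pyruvate carboxylase (PC) turns pyruvate into oxaloacetate inside the mitochondrion, and phosphoenolpyruvate carboxykinase, a cytosolic enzyme encoded by PCK1 and a mitochondrial one encoded by PCK2, turns oxaloacetate into phosphoenolpyruvate, from which glycerol-3-phosphate can be made. In fat tissue PCK1 is the enzyme for which this route is best known, and it lets adipocytes re-esterify fatty acids. Whether pyruvate takes this route or is burnt is set at the pyruvate dehydrogenase complex, which PDK2 and PDK4 switch off by phosphorylation and PDP1 switches on again.

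Expression of 10 genes of this route and of the pyruvate switch was examined in the longissimus dorsi (LD) muscle of 6 Laiwu pigs, a Chinese breed known for marbled meat. They were chosen by name for their roles, with earlier results of these data known. PCK1, PCK2 and PC stand for the pyruvate route, AQP7 and GK for glycerol, and PDK2, PDK4 and PDP1 for the switch. MPC1 stands for pyruvate entry and FBP2 for gluconeogenesis in muscle. Of the 31908 Ensembl genes in the expression table, 7 of the 10 genes carried their symbol, and AQP7, GK and MPC1 were the unnamed Ensembl genes ENSSSCG00000010992, ENSSSCG00000012202 and ENSSSCG00000032916, found by their RefSeq positions on the same Sscrofa11.1 assembly. The gene taken as AQP7 covered only 71.0% of the RefSeq span of AQP7, against 98.2% for GK and 99.99% for MPC1. The S-H group held 3 pigs with a very high intramuscular fat (IMF) content (LW63, LW70 and LW119) and the S-L group 3 pigs with a very low one (LW82, LW88 and LW90), with 1 library of total RNA per pig. All were castrated males, no group received a treatment, and ages are not given in the sources used here. The question was how gene expression in the muscle differs with its fat content. The sampled tissue was whole muscle, so each value mixes muscle fibres, adipocytes and other cells.

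Levels are given as FPKM (fragments scaled to transcript length and to the size of the library), summed over the transcripts of a gene. Because FPKM divides by transcript length, levels of different genes can be set side by side. Differences are log2 fold changes of FPKM + 0.1 for S-H minus S-L from limma, and to pass, a gene needed an unadjusted p under 0.01 and a change of 1 or more on the log2 scale in either direction. The pseudocount of 0.1 understates changes of low genes such as PCK1. Of 13320 tested protein-coding genes 180 passed, which is 1.35%, with 156 higher and 24 lower in S-H, and 0 reached a limma adjusted p of 0.05, against 1086 with p under 0.05 before adjustment. The direction of these calls depended on scaling: 86.7% of the passing genes were higher in S-H with FPKM, 94.8% with TPM, 62.2% with median-ratio size factors and 54.3% with quantile normalization. Over all tested genes the median change was 0.21 on the log2 scale with FPKM, 0.34 with TPM, 0.0074 with median-ratio size factors and -0.0074 with quantile normalization. The FPKM of a library summed to 638536 in LW119 and to between 776457 and 846661 in the other 5 pigs. No pair of pigs held identical values, and the sources used here name no batch.

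All 10 genes had a mean of at least 0.1 FPKM and were tested, and 0 of the 10 passed. For PCK1, PCK2, PC and AQP7 the lowest S-H pig exceeded the highest S-L pig, a pattern found in 12.9% of all tested genes. The same 4 genes had an unadjusted p below 0.05 with a higher level in S-H, against 7.09% of all tested genes, and an adjusted p of 0.58 each. GK, PDK2, PDK4, PDP1, FBP2 and MPC1 overlapped between the groups in FPKM. The median log2 fold change of the 10 genes was 0.45, beside 0.21 for all tested genes. Because the 10 genes were chosen with earlier results of these data known, these shares and medians are no test of the set.

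**Figure D1:**
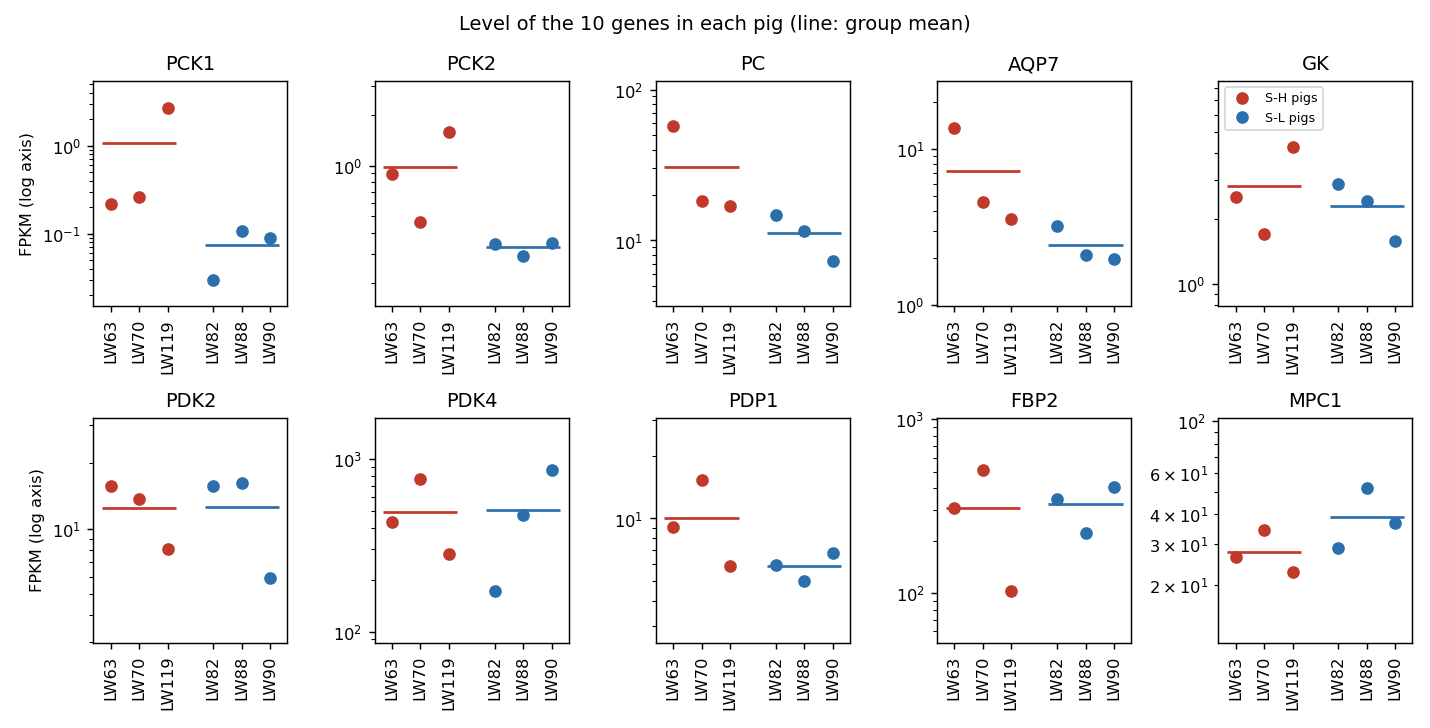
Level of each of the 10 genes in each pig, in FPKM on a log axis, with S-H pigs in red, S-L pigs in blue and lines at the group means. The groups are apart for PCK1, PCK2, PC and AQP7, where the highest S-H pig is LW119 for PCK1 and PCK2 and LW63 for PC and AQP7.

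PCK1 lies on chromosome 17 from 57930432 to 57938896. Its level was 0.219 FPKM in LW63, 0.261 in LW70 and 2.72 in LW119, and 0.0301 in LW82, 0.106 in LW88 and 0.0898 in LW90. LW119 alone stood 12.5-fold above LW63, so most of the difference between the group means of 1.07 ± 1.43 and 0.0754 ± 0.0401 FPKM (SD, n = 3 each) came from 1 pig. The log2 fold change was 2.0 with an SE of 0.74 (limma adjusted p = 0.58). Without LW119 it was 0.98, and without LW63 it was 2.55 and PCK1 passed (limma adjusted p = 0.93). PCK1 was a rare transcript in this muscle: its mean exceeded that of only 16.2% of the tested genes. The transcript PCK1-202 held 98.1% of the level, and PCK1-201 was above 0 only in LW88, at 0.0639 FPKM.

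LW119, the pig with the high PCK1 level, also had the highest summed level of 5 macrophage markers. That sum was 46.1 FPKM in LW119, 27.8 in LW63 and 10.5 in LW70, and 18.5 to 21.5 FPKM in the S-L pigs; 0 of the 5 markers passed and none was at 0. The sum of 5 fibroblast and progenitor markers was 630.4 FPKM in LW119, nearly the same in LW63 (607.9), and 304.9 in LW70. In the S-L pigs it was 329.7 to 514.9 FPKM, with no marker at 0 and 0 of the 5 passing. For 5 endothelial markers the sums were 90.3 to 113.4 FPKM in S-H and 69.2 to 97.5 FPKM in S-L, again with 0 passing. The part of these cells in the PCK1 level was not tested. Liver and kidney, the organs with the strongest PCK1 expression known, were checked by their markers. The hepatocyte genes ALB, TTR and FGB stood at no more than 0.156 FPKM in any pig, with TTR at 0 in all. Summed, 5 kidney tubule markers reached 0.299 to 0.611 FPKM in S-H and 0.291 to 0.641 FPKM in S-L, with SLC34A1 at 0 in all pigs. LRP2 led this sum except in LW88, where SLC12A1 was at 0.487 FPKM and LRP2 at 0.0834. APOA1 alone gave the hepatocyte list its summed level of 6.61 to 11.9 FPKM.

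The genes whose levels over the 6 pigs were most like those of PCK1 were also led by LW119. By Pearson's r of log2 levels over 6 pigs these were TCIRG1 (r = 0.994), a subunit of the proton pump of lysosomes and osteoclasts, SPRN (r = 0.989), a prion-like protein of the nervous system, SLC11A1 (r = 0.986), a metal transporter of macrophages and neutrophils, S100A9 (r = 0.985), a calcium-binding protein abundant in neutrophils and monocytes, and CLSTN3 (r = 0.980), a cadherin-like membrane protein. S100A9 was at 8.90 FPKM in LW119, 0.718 in LW63 and 0.756 in LW70, and at 0.0856 to 0.457 FPKM in the S-L pigs. SLC11A1 was at 2.42 FPKM in LW119 and 0.238 to 0.306 in the other S-H pigs, and below 0.05 FPKM in each S-L pig. Such values rest on 6 points with 1 extreme pig, and 62 of 13036 tested genes with a symbol had r above 0.95 with PCK1. PCK2 had r = 0.898 with PCK1 and ranked 300 of 13319 genes. Of the cell type markers only a few were ranked. PDGFRA of the progenitor list had r = 0.884 (rank 358) and MRC1 of the macrophage list r = 0.638 (rank 2406). The adipocyte markers PLIN1 and ADIPOQ had r = 0.382 (rank 5327) and r = 0.284 (rank 6503). Other members of these lists were not ranked, so the values do not order the cell types. DCN, also of the progenitor list, was at 202 FPKM in LW119, below LW63 (327 FPKM) and LW88 (308 FPKM).

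PCK2, on chromosome 7 from 75187194 to 75197733, encodes the mitochondrial enzyme. It was at 0.888 FPKM in LW63, 0.464 in LW70 and 1.60 in LW119, and at 0.344, 0.291 and 0.348 FPKM in LW82, LW88 and LW90. The S-L pigs were close to each other, with a mean of 0.328 ± 0.0315 FPKM, and the S-H pigs spread over 3.45-fold around 0.984 ± 0.574 FPKM (SD, n = 3 each). The log2 fold change was 1.20 with an SE of 0.42 (limma adjusted p = 0.58). It was 1.60 without LW70, where PCK2 passed (limma adjusted p = 0.42), and 0.81 without LW119. Which annotated transcript carried the level differed between pigs: PCK2-202 held all of it in LW63, LW82 and LW88, PCK2-201 held all of it in LW70 and LW90, and LW119 had 1.46 FPKM of PCK2-202 and 0.143 of PCK2-201. The split of reads between overlapping transcripts is an estimate by the assembler.

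Between the cytosolic and the mitochondrial enzyme, PCK2 was the higher in 5 of the 6 pigs. The ratio of PCK1 to PCK2 was 1.70 in LW119, 0.246 in LW63 and 0.562 in LW70, and 0.0875, 0.365 and 0.258 in LW82, LW88 and LW90, where a value below 1 means less PCK1. LW119 was the only pig with more PCK1 than PCK2. On the log2 scale the S-H mean ratio exceeded the S-L mean by 0.79, with overlapping groups (exact two-sided permutation test, p = 0.4; 0.5 after Benjamini-Hochberg adjustment over 5 pairs of genes). With 3 pigs against 3 the smallest p of this test is 0.10. Without LW119 the difference was 0.17.

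PC lies on chromosome 2 from 5518430 to 5587797 and was the most abundant enzyme of the pyruvate route. Its level was 56.9 FPKM in LW63, 18.3 in LW70 and 16.9 in LW119, and 14.7, 11.5 and 7.34 FPKM in LW82, LW88 and LW90. LW63 was 3.36-fold above LW119, while LW119 was only slightly above LW82 in FPKM. These libraries, LW119 and LW82, had the lowest and the highest FPKM sum (638536 and 846661), so their distance depends on the scaling. Means were 30.7 ± 22.7 and 11.2 ± 3.71 FPKM (SD, n = 3 each), and the log2 fold change was 1.27 with an SE of 0.45 (limma adjusted p = 0.58). Without LW63 it was 0.70. It passed with TPM (1.40) and without LW119 (1.58). One annotated transcript, PC-201, held the whole level. An assembled transcript assigned to LRFN4 (chromosome 2, 5571820 to 5588176) overlaps PC, and its level was 15.7% to 18.8% of that of PC in every pig, with the pigs in the same order.

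AQP7 is the aquaglyceroporin of adipocytes, the channel through which glycerol leaves the cell after lipolysis. On chromosome 10 from 33098727 to 33121116, it was at 13.6 FPKM in LW63, 4.60 in LW70 and 3.57 in LW119, and at 3.20, 2.08 and 1.97 FPKM in LW82, LW88 and LW90. As for PC, LW63 stood out and LW119 was close to LW82 in FPKM. The group means were 7.25 ± 5.52 and 2.42 ± 0.683 FPKM (SD, n = 3 each), with a log2 fold change of 1.33 and an SE of 0.46 (limma adjusted p = 0.58). Without LW63 the log2 fold change was 0.75. AQP7 passed without LW119 (1.70), with TPM (1.47) and with the values exactly as deposited (1.49). Its main transcript, ENSSSCT00000042660, held 91.0% of the level and had a log2 fold change of 1.60. Transcripts assigned to NFX1 overlap AQP7. NFX1-201 was at 3.85 FPKM in LW63 and 3.97 in LW82, with a log2 fold change of -0.066, and the assembled NFX1-OT2 was highest in LW63, at 1.20 FPKM, with a log2 fold change of 1.11 (limma adjusted p = 0.85) and 5.43% to 23.5% of the AQP7 level. Their part in the AQP7 level was not tested.

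In FPKM, PC and AQP7 ranked the 6 pigs in exactly the same order, LW63, LW70, LW119, LW82, LW88, LW90. Of the 13320 tested genes 112 had this order, or 0.841%, and 4 of the 9 tested adipocyte markers were among them: ADIPOQ, PLIN1, FABP4 and CIDEC. The order was also that of TNNT1, the slow troponin T, 1 of the 4 muscle fibre markers found. Such an order depends on the scaling, as the FPKM summed to 638536 in LW119 and to 776457 in LW70. Divided by these sums, PC was higher in LW119 than in LW70, while AQP7 was not. The 9 adipocyte markers summed to 525.7 to 1424 FPKM in the S-H pigs and to 359.5 to 471.4 FPKM in the S-L pigs, none was at 0, and 6 of the 9 passed with a higher level in S-H. LIPE (log2 fold change 0.78), PLIN4 (0.56) and LPL (0.023) did not pass. PLIN4 was lowest in the S-H pig LW119, at 61.7 FPKM, but not when divided by the FPKM sum of each library. LPL was highest in the S-L pig LW90, at 121.6 FPKM. In bulk muscle, more adipocytes and more RNA of these genes per adipocyte cannot be told apart. Of 10 muscle fibre markers 4 were found (CKM, MYH7, TNNT3 and TNNT1), which summed to 5167 to 8111 FPKM in S-H and 5353 to 7708 FPKM in S-L, and 0 of the 4 passed, so every library carried the muscle identity of its label.

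Each gene was therefore also set against the adipocyte markers of its own pig, a comparison chosen after the data were seen. The mean log2 level of the 9 markers was 1.36 higher in S-H. AQP7 lay between 2.20 and 2.80 log2 units below the marker mean in every pig, a span of 0.60, and S-H minus S-L was -0.029 on this scale (exact two-sided permutation test, p = 0.9). PC lay 0.14 to 0.83 below it, a span of 0.69, and the difference between the groups was -0.090 (exact p = 0.7). PCK1 ranged over 4.49 log2 units relative to the markers, and the groups differed by 0.64 (exact p = 0.9). For the other genes the difference was -0.15 for PCK2, -0.69 for PDP1, -1.12 for GK, -1.23 for PDK4, -1.29 for PDK2, -1.67 for FBP2 and -1.83 for MPC1. For every gene, AQP7 and PC included, the difference on this scale is its own log2 fold change minus the 1.36 of the markers. A gene with equal levels in both groups therefore comes out that much lower. These differences and their p-values carry no separate result, and the part of adipocytes in the levels was not tested.

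**Figure D2:**
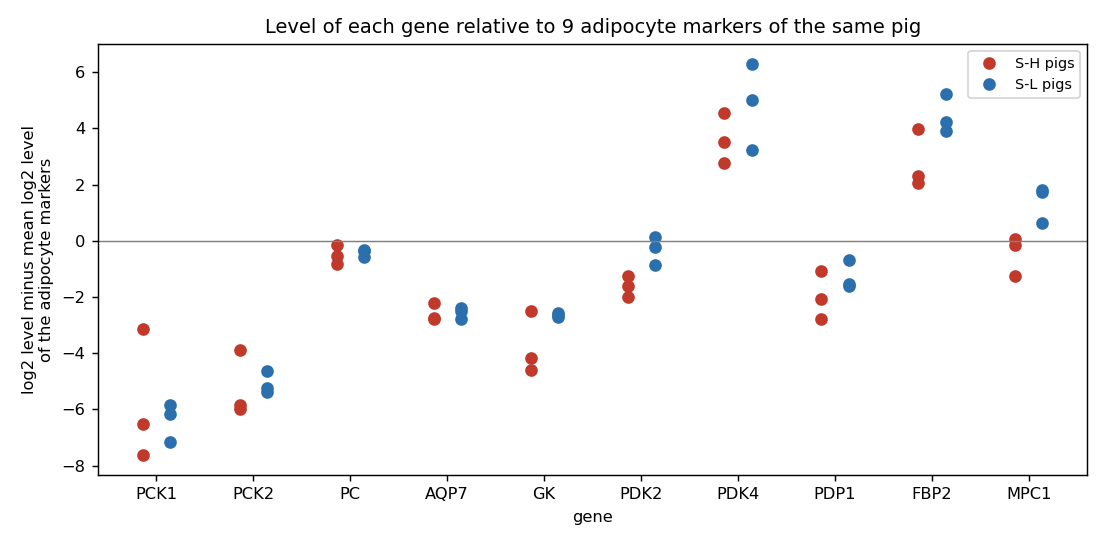
Log2 level of each gene minus the mean log2 level of 9 adipocyte markers in the same pig, with S-H pigs in red and S-L pigs in blue. AQP7 and PC span 0.60 and 0.69 log2 units over all pigs, and PCK1 spans 4.49. Since the marker mean is 1.36 higher in S-H, a gene with equal levels in both groups lies lower in the S-H pigs here.

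GK encodes glycerol kinase, which phosphorylates glycerol so that it can be used again. The gene lies on chromosome X from 26470417 to 26557262. It was at 2.51, 1.70 and 4.29 FPKM in LW63, LW70 and LW119 and at 2.90, 2.40 and 1.59 FPKM in LW82, LW88 and LW90, so the groups overlapped. S-H minus S-L was a log2 fold change of 0.24 with a 95% interval from -0.60 to 1.07 (limma adjusted p = 0.87), and it was -0.10 without LW119. Of its 10 transcripts 6 were tested, 0 of them passed, and ENSSSCT00000035639 held 54.6% of the level. The ratio of the channel to the kinase, AQP7 to GK, was 5.41 in LW63, 2.70 in LW70 and 0.832 in LW119, and 1.11, 0.866 and 1.24 in LW82, LW88 and LW90. LW63 and LW70 were above all S-L pigs and LW119 below them, and the log2 difference of 1.09 between the groups had an exact two-sided permutation p of 0.4 (0.5 adjusted over 5 pairs). It was 1.81 without LW119 and 0.48 without LW63.

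PDK4, the kinase that rises in muscle with fasting and fatty acid use, was the most abundant of the 10 genes. On chromosome 9 from 75246002 to 75260134, it was at 433 FPKM in LW63, 761 in LW70 and 281 in LW119, and at 172, 476 and 866 FPKM in LW82, LW88 and LW90. The lowest and the highest pig were both S-L, 5.04-fold apart. Between the groups the log2 fold change was 0.13 with a 95% interval from -1.12 to 1.38 (limma adjusted p = 0.95), and its sign turned without LW82 (-0.50), without LW70 (-0.25) and with median-ratio (-0.087) and quantile scaling (-0.076), while it was 0.26 with TPM. At this spread a 2-fold difference in either direction lay inside the interval. Its mean was above that of 99.5% of the tested genes.

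Most of the variation in PDK4 between pigs came from 1 transcript. PDK4-201 was at 260.7, 603.8 and 137.6 FPKM in LW63, LW70 and LW119 and at 35.9, 211.7 and 745.7 FPKM in LW82, LW88 and LW90, a range of 20.8-fold. PDK4-202, which extends further on the low-coordinate side (75246002 against 75246956), was at 168, 156 and 142 FPKM in the S-H pigs and 135, 263 and 119 FPKM in the S-L pigs, a range of 2.21-fold. PDK4-201 therefore made up 20.9% of the gene in LW82 and 86.1% in LW90. Neither transcript passed (limma adjusted p = 0.93 for PDK4-201 and adjusted p = 0.99 for PDK4-202).

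PDK2, another kinase of the same family, lies on chromosome 12 from 26274606 to 26301880. It was at 15.8, 13.7 and 8.10 FPKM in LW63, LW70 and LW119 and at 15.8, 16.2 and 5.96 FPKM in LW82, LW88 and LW90. One pig of each group, LW119 and LW90, was low. PDK2 had a log2 fold change of 0.064 with a 95% interval from -0.85 to 0.98 (limma adjusted p = 0.97), and the sign turned with median-ratio (-0.15) and quantile scaling (-0.11). Those low pigs also had another main transcript: PDK2-202 was at 2.94 FPKM in LW119 and 0.998 in LW90 against 12.6 to 14.5 FPKM in the others, and PDK2-201 was at 4.05 and 4.06 FPKM against 0.0129 to 2.28 FPKM. PDK2-202 thus held 36.3% of the gene in LW119 and 16.7% in LW90, and 85.5% to 92.1% in the other 4 pigs.

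PDP1, the phosphatase that reactivates the complex, lies on chromosome 4 from 42764432 to 42777904. Its level was 9.06 FPKM in LW63, 15.4 in LW70 and 5.88 in LW119, and 5.94, 4.99 and 6.81 FPKM in LW82, LW88 and LW90. In FPKM, LW63 and LW70 were above all S-L pigs and LW119 was among them. The FPKM of LW119 had the lowest sum, 638536, and divided by the sum of each library PDP1 in LW119 was above the S-L pigs. PDP1 had a log2 fold change of 0.67 with a 95% interval from -0.10 to 1.43 (limma adjusted p = 0.63). It was 1.0 without LW119 and 0.31 without LW70. The transcript PDP1-201, with 88.4% of the level, did not overlap between the groups, at 7.51, 14.4 and 5.87 FPKM in S-H and 5.31, 4.51 and 4.92 FPKM in S-L, and did not pass (limma adjusted p = 0.85).

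The ratio of the RNA of kinase and phosphatase, PDK4 to PDP1, each summed over its transcripts, was almost equal in the S-H pigs. It was 47.8 in LW63, 49.5 in LW70 and 47.8 in LW119, although PDK4 itself differed 2.71-fold among them. In the S-L pigs it was 28.9 in LW82, 95.3 in LW88 and 127 in LW90. The SD of the log2 ratio was 0.035 in S-H and 1.13 in S-L, and the difference of SDs was not tested. The group means differed by -0.54 on the log2 scale, with overlap (exact two-sided permutation p = 0.4, 0.5 adjusted over 5 pairs). With the top transcript of each gene the difference was -0.15 (exact p = 0.8). For these transcripts, PDK4-201 and PDP1-201, the S-H pigs were less alike. They held 260.7 against 7.51 FPKM in LW63, 603.8 against 14.4 in LW70 and 137.6 against 5.87 in LW119. The ratio of PDK4 to PDK2 was 27.4, 55.6 and 34.7 in the S-H pigs and 10.9, 29.3 and 145 in the S-L pigs, with a log2 difference of 0.065 (exact p = 1.0). In both ratios LW82 was the lowest and LW90 the highest pig.

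**Figure D3:**
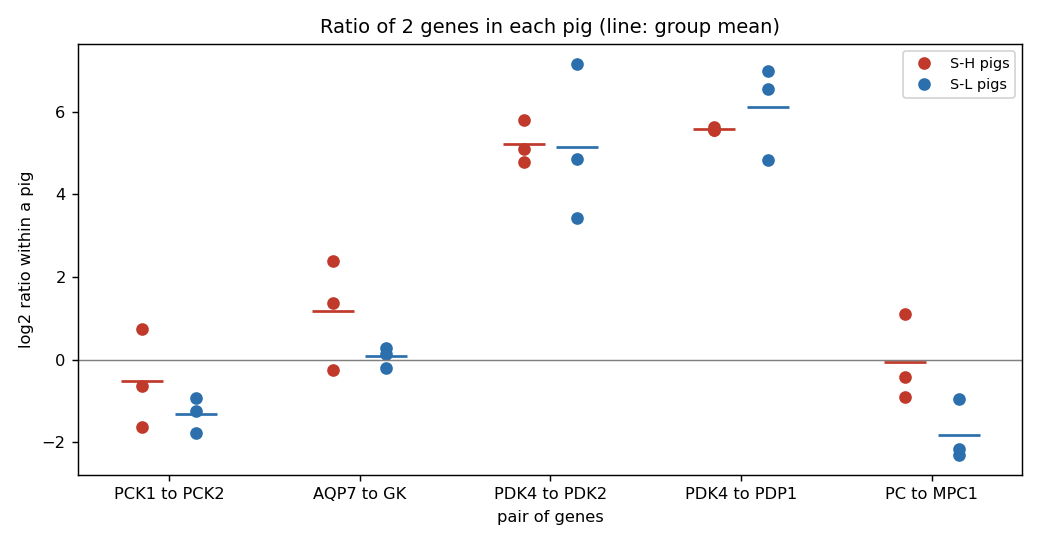
Log2 ratio of 2 genes within each pig for 5 pairs, with S-H pigs in red, S-L pigs in blue and lines at the group means. Only PC to MPC1 is apart between the groups, and the 3 S-H points of PDK4 to PDP1 fall almost on each other.

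MPC1 is a subunit of the mitochondrial pyruvate carrier, through which pyruvate reaches both PC and the dehydrogenase. On chromosome 1 from 2541383 to 2552863, it was at 26.3, 34.1 and 22.6 FPKM in LW63, LW70 and LW119 and at 28.7, 51.7 and 36.7 FPKM in LW82, LW88 and LW90. LW70 overlapped with the S-L pigs. For MPC1 the log2 fold change was -0.48 with a 95% interval from -1.11 to 0.16 (limma adjusted p = 0.66). The ratio of PC to MPC1 was 2.17, 0.536 and 0.750 in the S-H pigs and 0.512, 0.223 and 0.200 in the S-L pigs. It did not overlap, by a small margin between LW70 and LW82, and the log2 difference was 1.74 (exact two-sided permutation p = 0.1, the smallest possible, and 0.5 adjusted over 5 pairs). The groups overlapped with the values exactly as deposited (1.57, exact p = 0.2) and with the top transcript of each gene (0.70, exact p = 0.4). As deposited, PC is in FPKM, while MPC1 adds annotated transcripts in TPM to assembled ones in FPKM. The difference was 1.15 without LW63.

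MPC1 was the only one of the 10 genes with a transcript that passed. The 10 genes had 51 transcripts in the table, of which 34 were tested, 1 passed and 8 were at 0 in all pigs; among all 40336 tested transcripts 1.25% passed. The assembled transcript TCONS_00000288 of MPC1 was at 0.424, 0.569 and 0.178 FPKM in the S-H pigs and 2.23, 3.10 and 5.14 FPKM in the S-L pigs, lower in every S-H pig, with a log2 fold change of -2.88 and an SE of 0.49 (limma adjusted p = 0.25). It passed in 16 of 16 alternatives, with log2 fold changes from -3.19 to -1.65 and adjusted p from 0.25 to 0.48, and held 5.82% of the gene's level. The main transcript, ENSSSCT00000083136, went the other way, at 23.7, 30.5 and 13.7 FPKM in S-H and 19.2, 15.0 and 10.4 FPKM in S-L, with a log2 fold change of 0.57 (limma adjusted p = 0.86). It made up 90.2% of MPC1 in LW63 and 28.4% in LW90. ENSSSCT00000075149 was above 0 only in LW88, at 21.7 FPKM. These transcripts overlap over almost their whole length, so the division of reads among them is uncertain.

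**Figure D4:**
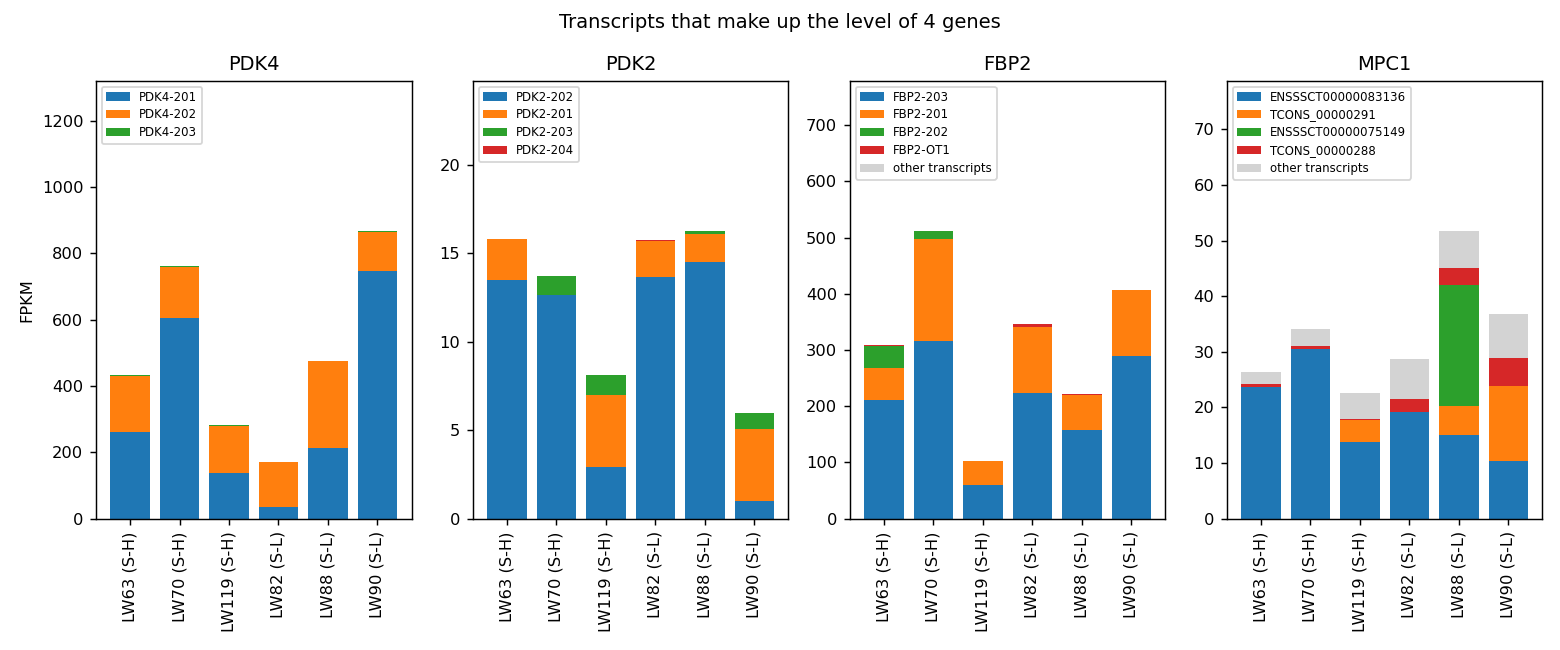
FPKM of the transcripts of PDK4, PDK2, FBP2 and MPC1 in each pig, stacked to the level of the gene, with axes from 0. PDK4-201 varies 20.8-fold and PDK4-202 2.21-fold over the pigs, PDK2-202 is small in LW119 and LW90, and MPC1 holds a different mix in LW88 and LW90 than in LW63 and LW70.

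FBP2 is the muscle form of fructose bisphosphatase, which works against glycolysis. Its annotated transcripts and 2 overlapping assembled ones lie on chromosome 10 from 27631496 to 27757215. The level was 309 FPKM in LW63, 511 in LW70 and 103 in LW119, and 346, 221 and 406 FPKM in LW82, LW88 and LW90. LW119 was the lowest and LW70 the highest pig, both S-H. FBP2 had a log2 fold change of -0.31 with a 95% interval from -1.47 to 0.85 (limma adjusted p = 0.88), and it was 0.34 without LW119. FBP2-203 held 66.4% and FBP2-201 30.5% of the level. FBP2-202 was at 39.7 FPKM in LW63 and 13.2 in LW70 and stood at 0 in LW119 and the S-L pigs.

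A list of 71 further genes of these pathways was ordered by role, and 64 of them were tested. Without overlap between the groups, 9 of the 64 were higher and 3 lower in S-H, beside 12.9% and 1.68% of all tested genes. One gene passed with a higher and 1 with a lower level in S-H, and the median log2 fold change of the 64 was 0.15. None of the 9 listed genes of the pyruvate dehydrogenase complex and its other regulators was apart between the groups. PDHA1, the catalytic subunit with the highest level of them, was at 122 ± 64.9 FPKM in S-H and 100.1 ± 28.1 FPKM in S-L (SD, n = 3 each), a log2 fold change of 0.15 that turned to -0.068 and -0.10 with median-ratio and quantile scaling.

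AQP3, another aquaglyceroporin, was the gene of the list that passed with a higher level. It was at 12.1, 4.30 and 3.23 FPKM in LW63, LW70 and LW119 and at 1.21, 0.655 and 2.51 FPKM in LW82, LW88 and LW90, and the log2 fold change was 2.04 with an SE of 0.55 (limma adjusted p = 0.55). It did not pass without LW63 (1.48), LW82 (2.01) or LW88 (1.61), nor with median-ratio (1.83) or quantile scaling (1.81) or with the top transcript alone (2.04). GPD1, which makes glycerol-3-phosphate from a glycolytic intermediate, was far more abundant than any glycerol channel or kinase, at 188, 219 and 101 FPKM in S-H and 77.7, 75.6 and 152 FPKM in S-L. It had a log2 fold change of 0.74 with an SE of 0.37 (limma adjusted p = 0.62).

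PPARGC1A, the coactivator PGC-1alpha, which drives PCK1 in liver and PDK4 in muscle, was the gene of the list that passed with a lower level. It was at 10.01, 22.4 and 15.1 FPKM in the S-H pigs and 25.5, 76.0 and 43.7 FPKM in LW82, LW88 and LW90, so each S-H pig was below each S-L pig, although LW70 was close to LW82. The log2 fold change was -1.54 with an SE of 0.41 (limma adjusted p = 0.55), and it stayed negative but did not pass without LW63 (-1.25), LW88 (-1.15) or LW90 (-1.54), or with the top transcript alone (-1.54). ESRRA, the nuclear receptor partner of PPARGC1A, overlapped between the groups, at 101 ± 28.8 and 87.8 ± 28.6 FPKM (SD, n = 3 each), a log2 fold change of 0.21 that was -0.0069 with median-ratio scaling. PPARG and CEBPA, the adipocyte transcription factors that act on PCK1 and AQP7, were named after their values were seen. PPARG was at 7.51 ± 4.63 FPKM in S-H and 3.11 ± 0.815 FPKM in S-L (log2 fold change 1.11, limma adjusted p = 0.58), and CEBPA at 19.8 ± 14.4 and 5.94 ± 3.05 FPKM (log2 fold change 1.66, limma adjusted p = 0.58; n = 3 each). Neither passed, and both were higher in every S-H pig. The list of regulators as a whole did not rise: the median log2 fold change of its 17 tested genes was -0.20. Without overlap, 3 of the 17 were higher and 2 lower in S-H, beside 12.9% and 1.68% of all tested genes. The 2 lower genes were PPARGC1A and CREB1 (log2 fold change -0.29, limma adjusted p = 0.74). FOXO1 had a log2 fold change of -0.65 (limma adjusted p = 0.61), but its groups overlapped, at 9.39 FPKM in LW70 and 9.25 in LW82. CREB1 and FOXO1 were also named after their values were seen.

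LDHA, which converts pyruvate to lactate, was lower in every S-H pig. It was at 289, 279 and 291 FPKM in LW63, LW70 and LW119 and at 417, 458 and 719 FPKM in LW82, LW88 and LW90. The log2 fold change was -0.85 with an SE of 0.28 (limma adjusted p = 0.58), and it passed only with quantile scaling (-1.06). With its top transcript alone the value was -4.62, with an SE of 2.97 (limma adjusted p = 0.75). The most abundant carrier of the oxaloacetate shuttles, SLC25A13, was at 254 ± 45.9 and 247 ± 55.7 FPKM (n = 3 each; log2 fold change 0.056, and -0.16 and -0.14 with median-ratio and quantile scaling). ALDOA, the muscle aldolase shared with glycolysis, was at 4187 ± 1365 and 4847 ± 1415 FPKM (n = 3 each; log2 fold change -0.22). FBP1, the liver form of fructose bisphosphatase, was named after its values were seen. It was at 1.18, 0.723 and 2.81 FPKM in the S-H pigs and 0.574, 0.499 and 0.0979 FPKM in the S-L pigs, higher in every S-H pig, with a log2 fold change of 1.75 (limma adjusted p = 0.58), while FBP2 overlapped.

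**Figure D5:**
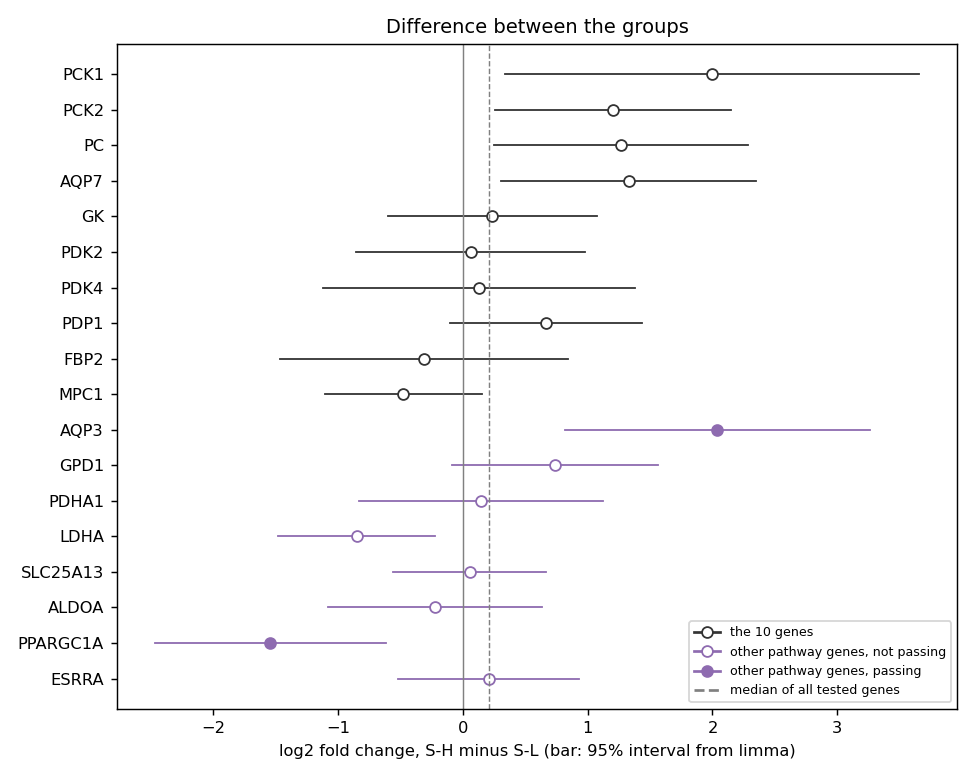
Log2 fold change of S-H minus S-L for the 10 genes (black) and the named genes of the pathway list (purple), with 95% intervals from limma, filled points for genes that passed and a dashed line at the median of all tested genes, 0.21. PCK1, PCK2, PC and AQP7 lie above 0 with intervals that do not reach it, and AQP3 and PPARGC1A are the filled points.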

How the data were processed

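Total RNA of the LD muscle of 3 S-H and 3 S-L pigs was sequenced, with 1 library per pig, and groups follow the source label of each sample. As the methods state, the authors made strand-specific libraries depleted of ribosomal RNA, aligned the reads with Hisat2 to the Sus scrofa assembly 11.1, and assembled and quantified transcripts with StringTie. The authors deposited FPKM for 83119 transcripts; 21104 Ensembl transcripts without a symbol were found to be in TPM and were multiplied by 1 factor per pig. With this step 1998 of 1998 gene sums came within 0.5% of the gene-level values given with the study, and 1638 without it. The annotated transcripts of AQP7, GK and MPC1 were among those converted. The paper gives the number of reads of each library. No read counts per gene were used, so the number of fragments behind each level is not known here and no counting intervals are given. The sources name no scaling across pigs, and none was applied.

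FPKM were summed by gene ID. Gene types came from RefSeq by symbol (13901 genes) or by a reciprocal overlap of at least 50% (5255 genes), which gave 17684 protein-coding genes. Every gene or transcript averaging 0.1 FPKM or more went into limma (version 3.58.1, R 4.3.3, trended variance) as log2(FPKM + 0.1), over all 6 pigs, with Benjamini-Hochberg adjustment over all tested genes. The authors used edgeR, which needs counts. The thresholds, an unadjusted p under 0.01 and a change of 1 or more on the log2 scale, are those of the authors. Ratios went through exact permutation tests, two-sided (Python 3.11.15, scipy 1.17.1). The limma step was tested on simulated data.

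Alternatives were other pseudocounts, minimum levels, scalings, limma settings, the top transcript of each gene, all annotated genes, the values as deposited, and each pig left out. Named were all 10 genes, their tested transcripts, the pathway genes that passed, the gene with the highest mean of each pathway group, and the 5 genes most like PCK1. The 10 genes, the pathway list and the marker lists were chosen with earlier results of these data known. The count at p below 0.05 and the comparison with adipocyte markers were chosen after seeing the data. Strand, where transcripts overlap, was not checked, and sequences were not used here.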

Additional observations from a re-analysis of the deposited data

How the results depend on the processing

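Counts per gene were not used here, so the number of fragments behind a low level is not known. The low level of PCK1 made its change depend on the pseudocount (log2 fold change 0.73 with a pseudocount of 1 and 2.83 with 0.01). No paired analysis was possible because the 6 pigs are different animals and no label pairs them. PCK1, PCK2, PC, AQP7 and PDP1 kept a positive log2 fold change in every alternative in which they were tested. The number of genes that passed was 79 with a pseudocount of 1, 117 with a mean of at least 1 FPKM, and 91 (without LW90) to 278 (without LW82) with each pig left out. Transcripts that passed numbered 227 and 181 under the same pseudocount and minimum. Of the 10 genes, 2 passed with TPM, 1 with the values as deposited, 0 to 2 with each pig left out (1 without LW63 or LW70 and 2 without LW119), and 4 at an unadjusted p below 0.05, a threshold added after seeing the data. Of the pathway list, 5 passed with TPM, 1 with median-ratio size factors, 0 with the top transcript, and 0 to 6 with each pig left out (0 without LW63 or LW88, 1 without LW90, 5 without LW82, and 6 without LW70 or LW119). Signs turned for genes near 0. With median-ratio and quantile scaling PDK2 was -0.15 and -0.11, PDK4 -0.087 and -0.076, PDHA1 -0.068 and -0.10, SLC25A13 -0.16 and -0.14, and ESRRA -0.0069 with median-ratio scaling. MPC1 was 0.57 with its top transcript. With each pig left out the log2 fold change ranged from -0.41 to 0.35 for PDK2, -0.50 to 0.66 for PDK4, -0.10 to 0.54 for GK, -0.82 to 0.34 for FBP2, -0.22 to 0.68 for PDHA1, -0.13 to 0.21 for SLC25A13, -0.47 to 0.0041 for ALDOA, -0.043 to 0.47 for ESRRA, and -0.79 to 1.07 for the log2 ratio of PDK4 to PDK2. The cause was not tested.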
